A study of Mus musculus with 18 samples.

Results

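Uroplakins are the membrane proteins of the bladder lining, and mesothelin is a surface protein best known from the lining of body cavities. Their transcripts were measured here in epithelial cells of mouse lung. The genes were the uroplakins Upk1a, Upk1b, Upk3a and Upk3b, the mesothelin gene Msln, and Wt1, a transcription factor of mesothelium that served as the control for cells of that lining. All 6 genes had 1 probe set that names them alone, among 30142 genes measured in this way.

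The cells came from TCF/Lef:H2B/GFP mice aged 8 to 12 weeks, in which TCF/Lef sites drive a histone-bound green fluorescent protein that reads Wnt/beta-catenin signalling. Dissociated lungs were depleted of CD31 and CD45 positive cells, enriched for EpCAM, and sorted as live EpCAM positive cells with no, low or high fluorescence, named Wntnegative, Wntlow and Wnthigh. Each group had 6 Affymetrix arrays, each from a pool of 3 to 4 animals. All groups carried the reporter, and the labels name no other treatment. The labels number the experiments but name no run. By the number of decimals of their values and by their medians the arrays fell into 2 sets of 9, called runs here, the first holding experiments 2 to 5 and the second experiments 7 to 9, with 3 arrays of each group in each run. In the first run Wnthigh arrays came from experiments 2, 4 and 5 and those of the other groups from experiments 3, 4 and 5.

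In bladder urothelium, the tetraspanins Upk1a and Upk1b pair with the single-pass proteins Upk2 and Upk3a, leave the endoplasmic reticulum as pairs, and build the rigid plaques of the apical membrane. Upk3b is a relative of Upk3a and is widely used as a marker of mesothelial cells. Mesothelin is made as a precursor that furin cuts, is held at the surface by a lipid anchor and binds the mucin Muc16. In mouse airways Upk3a is known to mark a subset of club cells close to neuroendocrine bodies, and Wt1 is a marker of mesothelium rather than of airway or alveolar epithelium.

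Upstream sequences of 3 of the genes were at hand, from RefSeq on GRCm38.p6, and are shown because Upk1a and Upk3a shared a pattern over the groups that Upk3b did not. Each is the 250 bases before the annotated start, 5′ to 3′ on the strand of the gene. They lie at chr7:30612735-30612984 on the minus strand for Upk1a, at chr15:85016891-85017140 on the plus strand for Upk3a and at chr5:136038246-136038495 on the plus strand for Upk3b. Capitals mark matches to a TATA box (TATAAA or TATATA) or to a GC box (GGGCGG), searched on both strands.
Upk1a: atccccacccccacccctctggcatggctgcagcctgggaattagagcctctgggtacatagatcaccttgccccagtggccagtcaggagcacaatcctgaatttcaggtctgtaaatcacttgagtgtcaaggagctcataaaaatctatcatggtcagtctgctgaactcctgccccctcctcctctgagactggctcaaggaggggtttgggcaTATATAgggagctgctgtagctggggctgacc
Upk3a: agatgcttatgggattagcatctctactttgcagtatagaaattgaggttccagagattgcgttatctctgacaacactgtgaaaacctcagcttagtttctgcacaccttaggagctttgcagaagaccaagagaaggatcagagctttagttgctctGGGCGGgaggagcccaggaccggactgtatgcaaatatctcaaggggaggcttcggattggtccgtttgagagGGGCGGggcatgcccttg
Upk3b: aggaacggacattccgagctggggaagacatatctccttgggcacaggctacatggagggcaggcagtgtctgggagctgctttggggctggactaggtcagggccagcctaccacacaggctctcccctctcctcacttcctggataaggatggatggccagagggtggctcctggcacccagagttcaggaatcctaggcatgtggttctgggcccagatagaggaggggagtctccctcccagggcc

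The Upk1a window held 1 TATA match, starting 32 bases before the start, and the Upk3a window held 2 GC boxes, starting 91 and 18 bases before it. A TATA match was present in 15.6% and a GC box in 32.7% of 32851 mouse promoter windows of the same length. The letters CTTTGAT, which TCF/Lef factors bind, were searched along with the variants CTTTGTT and CTTTGAA on both strands. None was in the 3 windows, and 12% of all windows held one. A match or its lack says nothing about binding.

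Values below are the deposited log2 values, and a difference of 1 is a doubling on that scale. The runs were on offset scales, with array medians of 4.62 to 4.77 in the first run and of 3.55 to 3.69 in the second, so groups were compared within runs. A background limit was set for each run at the median over its arrays of the 95th percentile of 23 background probe sets, which gave 5.17 in the first and 4.92 in the second run. A value under the limit is no evidence of a transcript. The limit lay closer to the array medians in the first run than in the second. Passing it is therefore not the same measure in both runs. The number of arrays limits the precision. The Wnthigh and the Wntlow array of experiment 4 each stood apart in a marker list. The mean of 10 goblet cell markers was 9.23 in Wnthigh, against 6.44 and 7.46 in the other Wnthigh arrays of that run. The mean of 9 ciliated cell markers was 9.96 in Wntlow, against 13.73 and 12.64. In the Wntnegative array of experiment 4 the goblet mean was 5.59 against 5.10 and 5.45, and the ciliated mean 6.25 against 7.68 and 6.42. The values of the main differences without experiment 4 are therefore given too.

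Upk1a, Upk1b and Msln were higher in Wntlow cells than in both other groups in each run. Upk3a had its highest values in Wntlow arrays by a small margin, but passed the background limit in the first run only. That limit lay closer to the array medians than the limit of the second run. Wt1 was under the background limit on every array. In limma with the run as a term these 4 genes, Upk1a, Upk1b, Msln and Upk3a, were called higher than in Wntnegative cells, as were 12.3% of all genes, and higher than in Wnthigh cells, as were 16.4%. Against Wntnegative cells the fitted log2 differences were 4.23, 3.71, 2.80 and 0.71 in that order. The value for Msln is against Wntnegative arrays under the limit, and that for Upk3a rests in part on the second run, where all its values were under the limit. Upk3b did not follow this pattern, and its only high values were in a pair of arrays of experiment 4.

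**Figure D1:**
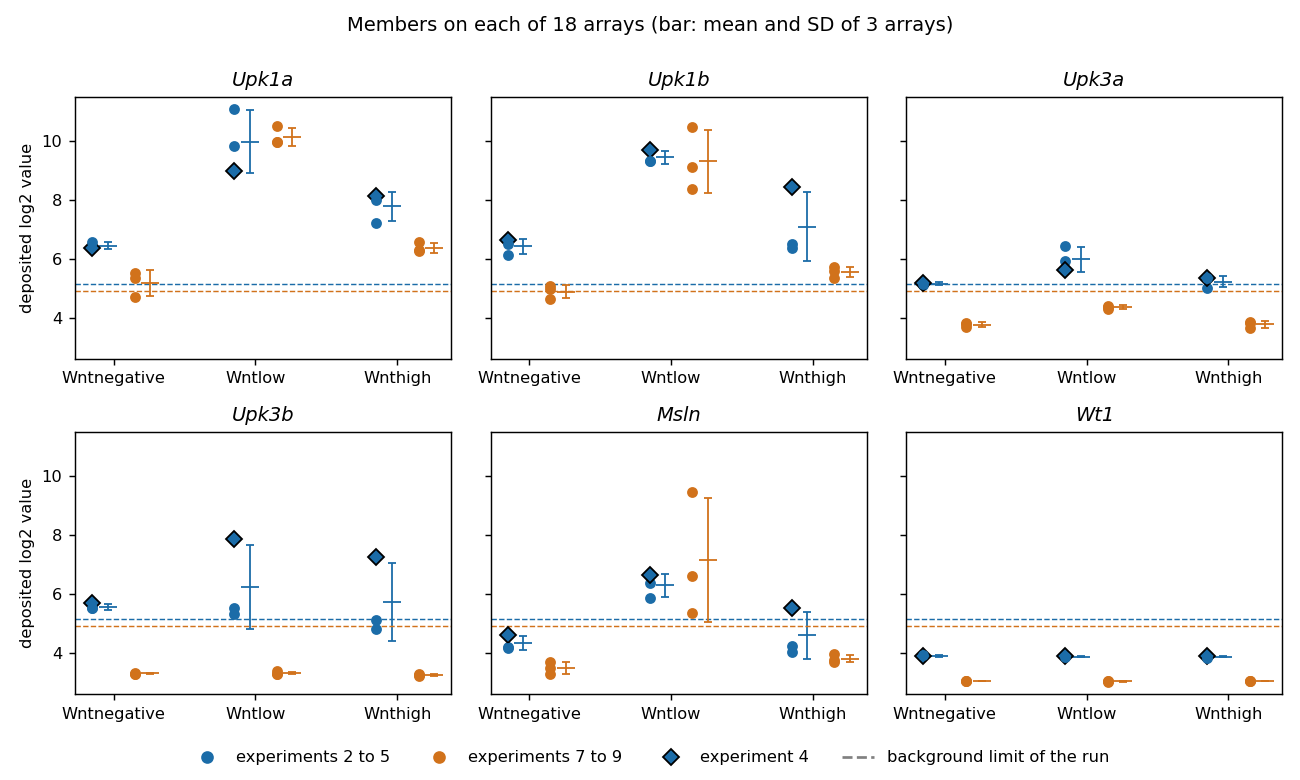
Deposited log2 value (vertical axis) of each gene on each of 18 arrays by group, with experiments 2 to 5 in blue, experiments 7 to 9 in orange and experiment 4 as outlined diamonds; bars are mean and SD of 3 arrays and dashed lines the background limits of 5.17 and 4.92. The Wntlow arrays lie above those of the other groups for Upk1a, Upk1b, Upk3a and Msln in each run, with Upk3a under the limit throughout the second, Upk3b is high in 2 arrays of experiment 4, and all Wt1 values lie under the limits.

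Upk1a encodes uroplakin Ia, a tetraspanin. In Wntlow arrays it was at 9.82, 8.98 and 11.09 in experiments 3, 4 and 5, and at 9.97, 10.49 and 9.96 in experiments 7, 8 and 9. In Wntnegative arrays it was at 6.39, 6.39 and 6.59 in experiments 3, 4 and 5, and at 4.70, 5.34 and 5.51 in experiments 7, 8 and 9. In Wnthigh arrays it was at 7.22, 8.14 and 7.99 in experiments 2, 4 and 5, and at 6.29, 6.56 and 6.27 in experiments 7, 8 and 9. The 3 groups did not overlap in either run and stood in 1 order, Wntnegative lowest, Wnthigh between and Wntlow highest. Upk1a was above the background limit on 17 of 18 arrays, the exception being the Wntnegative array of experiment 7.

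Upk1a was higher by 4.23 in Wntlow than in Wntnegative cells (SE 0.35, adjusted p = 6.99e-07, limma with the run as a term). It was higher by 2.97 in Wntlow than in Wnthigh cells (SE 0.35, adjusted p = 1.08e-05) and by 1.26 in Wnthigh than in Wntnegative cells (adjusted p = 0.00806). Without experiment 4 the differences were 4.56, 3.40 and 1.16, and all passed. That between Wnthigh and Wntnegative cells missed the threshold of 0.05 in experiments 2 to 5 alone, at 1.33 (adjusted p = 0.0919), and without a run term (adjusted p = 0.0750), and it was 1.19 in experiments 7 to 9 alone (adjusted p = 0.00799). The difference between Wntlow and Wntnegative was 3.51 in the first and 4.95 in the second run, and that between Wntlow and Wnthigh 2.18 and 3.76. The changes of 1.45 and 1.58 between runs had unadjusted p of 0.0255 and 0.0161 and did not pass the adjusted limma test (0.843 and 0.580). No gene of the 30142 passed that test in any comparison in limma, where 1757, 1940 and 2183 had an unadjusted p under 0.05 in low against negative, high against negative and low against high, and under other settings up to 46 genes passed.

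Upk1b encodes uroplakin Ib, the other tetraspanin of the family, which is also made in several epithelia outside the bladder. In Wntlow arrays it was at 9.32, 9.70 and 9.32 in experiments 3, 4 and 5, and at 9.10, 10.45 and 8.35 in experiments 7, 8 and 9. In Wntnegative arrays it was at 6.13, 6.64 and 6.50 in the first run and at 4.97, 4.65 and 5.07 in the second run. Wnthigh arrays gave 6.49, 8.44 and 6.36 in experiments 2, 4 and 5, and 5.71, 5.59 and 5.37 in experiments 7, 8 and 9. Every Wntlow array was above every array of the other groups of its run, and the Wnthigh array of experiment 4 was well above the other Wnthigh arrays.

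Upk1b was higher by 3.05 in Wntlow than in Wnthigh cells (SE 0.40, adjusted p = 2.25e-05), and the difference without experiment 4 was 3.41. Against Wntnegative cells it was higher by 3.02 within the first run and by 4.40 within the second one, where the Wntnegative mean of 4.90 lay just under the limit. Wnthigh and Wntnegative cells differed by 0.67 (95% interval −0.18 to 1.51, adjusted p = 0.205), and by 0.44 without experiment 4. The interval leaves room for a difference of up to 1.51.

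Upk3a encodes uroplakin IIIa, the partner of Upk1b in urothelial plaques. In Wntlow arrays it was at 5.92, 5.62 and 6.43 in experiments 3, 4 and 5, and at 4.31, 4.38 and 4.42 in experiments 7, 8 and 9. In Wntnegative arrays it was at 5.12, 5.20 and 5.17 in the first and at 3.84, 3.69 and 3.79 in the second run. In Wnthigh arrays it was at 5.02, 5.34 and 5.34 in experiments 2, 4 and 5, and at 3.66, 3.85 and 3.88 in experiments 7, 8 and 9. Wntlow arrays were again above both other groups in each run, but in experiments 7 to 9 all 9 arrays were under the background limit. In the first run the Wntnegative arrays were at the limit of 5.17.

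The difference of Upk3a between Wntlow and Wntnegative cells was 0.71 (SE 0.11, adjusted p = 1.32e-04), and it was 0.83 and 0.60 within the first and the second run. Between Wntlow and Wnthigh cells it was 0.67 (SE 0.11, adjusted p = 1.27e-04), which missed the threshold in experiments 2 to 5 alone, at 0.76 (adjusted p = 0.0532). Without experiment 4 the differences were 0.77 and 0.74, and both passed. Neither passed without a run term (adjusted p = 1 for both), where the offset of the runs enters the spread. In the second run Wntlow arrays were under the limit as well, so the difference there is one of probe signal and gives no bound on the transcript. Wnthigh and Wntnegative cells differed by 0.05 (95% interval −0.18 to 0.27, adjusted p = 0.769).

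Msln encodes mesothelin. In Wntlow arrays it was at 6.39, 6.66 and 5.89 in experiments 3, 4 and 5, and at 6.63, 9.46 and 5.38 in experiments 7, 8 and 9. In Wntnegative arrays it was at 4.22, 4.64 and 4.20 in the first and at 3.72, 3.32 and 3.50 in the second run, all under the limits. Wnthigh arrays had it at 4.05, 5.53 and 4.26 in experiments 2, 4 and 5, and at 3.72, 3.97 and 3.78 in experiments 7, 8 and 9. Msln was thus above the limit on all 6 Wntlow arrays and on 1 other array, the Wnthigh array of experiment 4. Among Wntlow arrays, the value of experiment 8 was far above the rest.

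Because Wntnegative levels were under the limit, Msln was higher in Wntlow cells by at least 1.14 in the first and at least 2.24 in the second run, counted from the limits. The second of these rests on experiment 8, without which it was at least 1.09. Between Wntlow and Wnthigh cells the fitted difference was 2.52 (SE 0.53, adjusted p = 0.00164), and 1.70 within the first run, where 2 of 3 Wnthigh arrays were under the limit. In the second run all Wnthigh arrays were under it, and the difference was at least 2.24, or at least 1.09 without experiment 8. Without experiment 8 the fitted difference was 1.92 (adjusted p = 4.37e-04), and without experiment 4 it was 2.79. The comparison of Wnthigh with Wntnegative cells gave 0.28 for Msln (95% interval −0.85 to 1.42, adjusted p = 0.713), and 0.16 without experiment 4.

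Wt1 was between 3.86 and 3.96 on all 9 arrays of the first run and between 3.04 and 3.07 on all 9 of the second run. No array of any group exceeded the background limit. The difference between Wntlow and Wntnegative cells was −0.02 (95% interval −0.06 to 0.03, adjusted p = 0.676), and those of the other comparisons were as small. At these levels the interval bounds the probe signal, not the transcript.

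Upk3b encodes uroplakin IIIb. In Wntlow arrays it was at 5.35, 7.88 and 5.53 in experiments 3, 4 and 5, and at 3.32, 3.32 and 3.39 in experiments 7, 8 and 9. Those of the Wnthigh group had it at 4.83, 7.27 and 5.14 in experiments 2, 4 and 5, and at 3.32, 3.28 and 3.25 in experiments 7, 8 and 9. In Wntnegative arrays it was at 5.53, 5.70 and 5.53 in the first and at 3.32, 3.32 and 3.35 in the second run. The groups overlapped, and all 9 arrays of the second run were under the limit. No comparison of Upk3b passed with all arrays (0.34, 0.06 and 0.29 for low against negative, high against negative and low against high, SE 0.41). Without experiment 4 the first of these was −0.03. Wnthigh against Wntnegative cells then had a log2 difference of −0.25 (95% interval −0.44 to −0.05, adjusted p = 0.0446 in limma), a call that 22.1% of all genes received in that direction. Every Wnthigh array left in that fit was under the limit, so the size of this difference is one of probe signal.

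**Figure D2:**
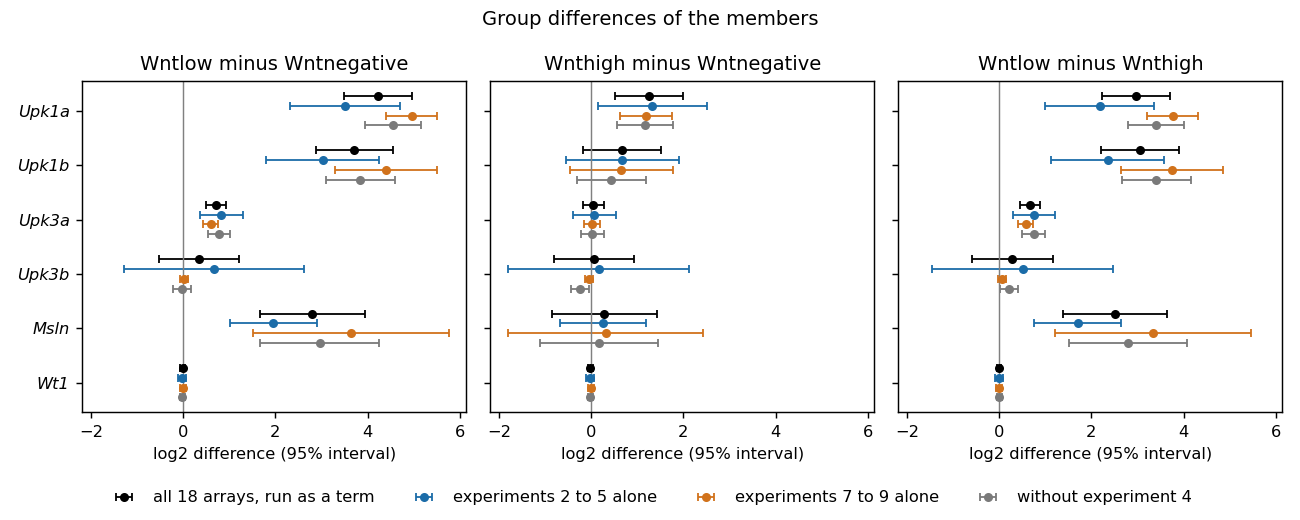
Log2 differences (horizontal axis) with 95% intervals for the 6 genes in the 3 comparisons, from all 18 arrays with the run as a term (black), from experiments 2 to 5 alone (blue), from experiments 7 to 9 alone (orange) and without experiment 4 (grey). Differences of Upk1a, Upk1b, Upk3a and Msln involving Wntlow cells lie above 0 in every fit shown, the Upk3b intervals with all arrays and in the first run are wide and span 0, and those of Wt1 are narrow and span 0.

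In Wnthigh against Wntnegative cells 1 of the 6 genes, Upk1a, was called higher, against 15.7% of all genes, so that the members' share was close to the background. None of the 6 was called lower with all arrays, where 13.2%, 24.6% and 11.4% of all genes were in low against negative, high against negative and low against high. In the first run alone 4, 0 and 3 of the 6 were called higher in these comparisons, against 4.74%, 12.2% and 6.11% of all genes, and in the second run alone 4, 1 and 4, against 8.32%, 11.3% and 11.5%. Without experiment 4 the counts were 4, 1 and 4, against 12.3%, 15% and 15.4%, and without a run term 3, 0 and 3, against 2.79%, 4.89% and 2.09%. With a size of at least 1 added, 3 of 6 were called higher in Wntlow against Wntnegative cells, and 4.32% of all genes. Arrays of the Wntlow group lay above all arrays of both other groups in each run for 4 of the 6 genes, Upk3a with values under the limit in the second run among them, and for 2.04% of all genes, and those of the Wnthigh group above all Wntnegative arrays for 1 of 6 and 12.9%. The median log2 difference of the 6 genes was 1.76 for low against negative, 0.17 for high against negative and 1.59 for low against high, and those of all genes were −0.03, −0.05 and 0.01. In a bulk sample, fewer cells that express a gene and less RNA of it per cell cannot be told apart.

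Transcripts of Upk2, the remaining plaque protein, were highest in Wntlow cells like those of Upk1a, while genes of uroplakin traffic were mixed. Upk2, the partner of Upk1a, was at 6.50, 6.04 and 6.67 in the first and at 6.42, 5.90 and 5.79 in the second run in Wntlow arrays. In Wntnegative arrays Upk2 was at 4.92, 4.88 and 4.79, and at 3.96, 3.97 and 3.92, all under the limits. Among Wnthigh arrays it stood at 4.54, 5.76 and 5.26 in experiments 2, 4 and 5, and at 3.96, 3.74 and 4.18 in experiments 7, 8 and 9. Upk2 was thus above the limit on all 6 Wntlow arrays and on 2 of 6 Wnthigh arrays, and higher in Wntlow than in Wntnegative cells by at least 1.24 and 1.12 within the runs (fitted 1.81, SE 0.20, adjusted p = 1.12e-05). Without experiment 4 the fitted difference of Upk2 was 1.94. Wnthigh and Wntnegative cells differed by 0.17 for Upk2 (adjusted p = 0.551).

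Of 7 genes on the list of further uroplakins and uroplakin traffic, 2 rose and 3 fell in Wntlow against Wntnegative cells, with a median of −0.40. Snx31, a sorting nexin that carries uroplakins to lysosomes, rose by a fitted 1.25 (SE 0.18, adjusted p = 8.27e-05), and was at 1.22 in experiments 2 to 5 alone (adjusted p = 0.0760). Its Wntnegative arrays were all under the limits, and counted from these the Snx31 difference was at least 0.85 in the first run, or 0.48 without experiment 5, and at least 0.14 in the second. Rab27b, a GTPase of vesicle transport to the apical membrane, had a log2 difference of −2.29 (SE 0.38, adjusted p = 2.92e-04), and of −1.99 in experiments 2 to 5 alone (adjusted p = 0.134). Mal, a membrane protein of apical transport, had a log2 difference of −1.47 (adjusted p = 0.0472), which did not pass when any of experiments 3, 5, 7, 8 or 9 was left out (adjusted p up to 0.146). Rab27b and Mal are also expressed in other cells that secrete. In Wnthigh against Wntnegative cells none of the 7 rose and 4 fell, and in Wntlow against Wnthigh cells 5 rose and none fell.

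Among 25 measured tetraspanins outside the uroplakins, 7 rose, 10 fell and 8 did not pass in Wntlow against Wntnegative cells, with a median of −0.06. Tspan1 rose by 5.35 (SE 0.36) and Tspan13 by 3.90 (SE 0.31), and Upk1a and Upk1b lay next to them in this comparison. Tspan1 had means of 16.79 and 17.58 in Wnthigh arrays of the first and second run, against 16.12 and 17.44 in Wntlow arrays. For Tspan13 these were 9.85 and 8.10 against 10.31 and 10.03. Tspan11 and Tspan15 each had a log2 difference of −3.00 (SE 0.63 and 0.52), and neither passed in experiments 2 to 5 alone (adjusted p = 0.264 and 0.109). Tetraspanins organise other membrane proteins into domains, and Tspan15 binds the protease ADAM10.

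**Figure D3:**
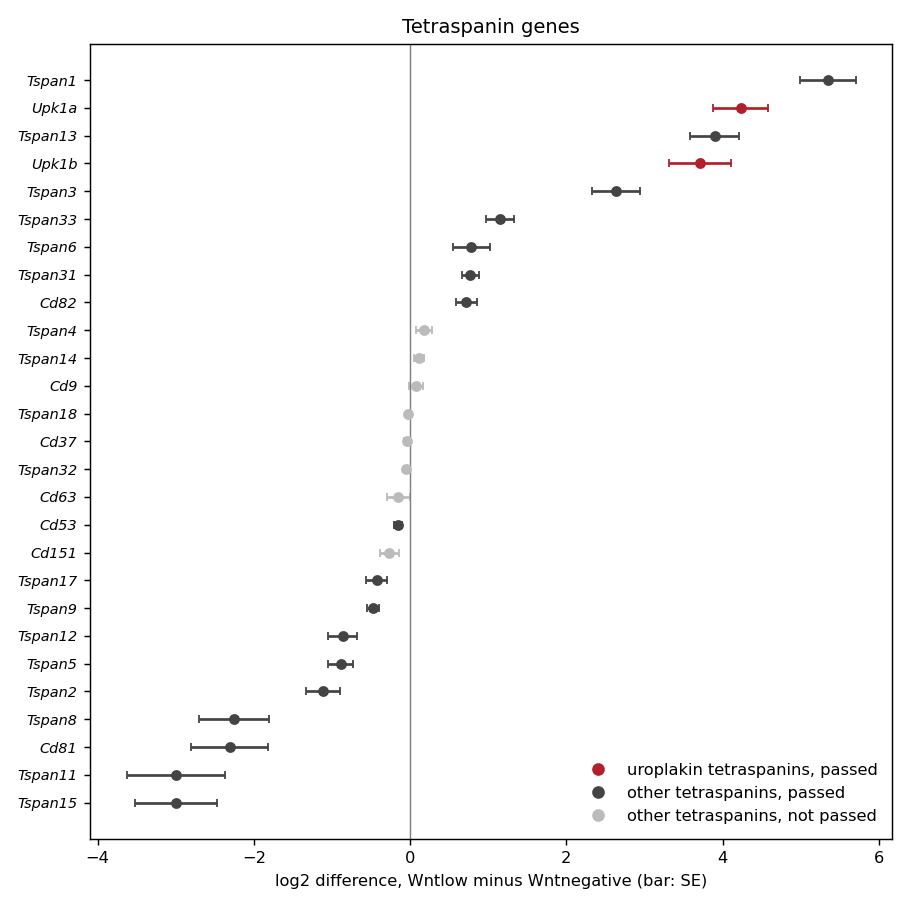
Log2 difference between Wntlow and Wntnegative cells (horizontal axis, bar SE) for the uroplakin tetraspanins in red and 25 other tetraspanins, dark where they passed limma's adjusted threshold and light where they did not. Upk1a at 4.23 and Upk1b at 3.71 lie near Tspan1 and Tspan13 at the upper end, while 10 other family members lie below 0 and passed.

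Of 11 measured genes of the urothelial list, 9 rose in Wntlow against Wntnegative cells and none fell, with a median of 0.55. Krt19, a keratin of simple epithelia, rose by 3.99 (SE 0.33), Krt8 by 1.12 (SE 0.15, adjusted p = 0.0517 in experiments 2 to 5 alone) and Pparg, a nuclear receptor that promotes urothelial differentiation, by 1.83 (SE 0.21). All 3 are expressed in lung epithelium too. Krt20 and Psca, also on the list, had group means under the limits in all groups and runs. These ran from 3.44 to 4.76 for Krt20 and from 2.96 to 3.87 for Psca. In Wnthigh against Wntnegative cells 7 of the 11 rose and 1 fell, and in Wntlow against Wnthigh cells 3 rose.

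Partners of mesothelin were mixed. Muc16, the mucin that mesothelin binds, was at 6.74, 5.60 and 6.50 in the first and at 4.93, 7.66 and 5.93 in the second run in Wntlow arrays. In Wntnegative arrays it was at 4.47, 4.63 and 4.67, and at 3.71, 3.84 and 3.55, all under the limits. In Wnthigh arrays it was at 4.68, 6.21 and 4.62 in experiments 2, 4 and 5, and at 3.87, 4.21 and 4.11 in experiments 7, 8 and 9. As for Msln, the Wntlow array of experiment 8 was the highest of the second run and the Wnthigh array of experiment 4 stood above the other Wnthigh arrays. The difference of Muc16 between Wntlow and Wntnegative cells was at least 1.11 in the first and 1.25 in the second run, the latter at least 0.51 without experiment 8. The fitted value was 2.08 (SE 0.39, adjusted p = 8.42e-04), 2.31 without experiment 4 and 1.69 in experiments 2 to 5 alone (adjusted p = 0.0693). Between Wntlow and Wnthigh cells it was 1.61 (adjusted p = 0.00459), and 1.11 in experiments 2 to 5 alone (adjusted p = 0.186). Furin, the protease that cuts the mesothelin precursor, had a log2 difference of −0.61 between Wntlow and Wntnegative cells (SE 0.12, adjusted p = 0.00147), and of −0.63 in experiments 2 to 5 alone (adjusted p = 0.166).

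Mesothelium is defined here by Wt1, Lrrn4, Bnc1, Gpm6a and Calb2, and 3 of these, Wt1, Bnc1 and Calb2, were under the limit on all 18 arrays. Lrrn4, a surface protein of mesothelial cells, was above it on 2 arrays, at 6.53 in the Wntlow and 5.50 in the Wnthigh array of experiment 4. Gpm6a, which mesothelium shares with neurons and alveolar type I cells, was above it on 11 arrays, among them all arrays of the first run. It was highest on the same pair, at 8.81 and 8.34. The other arrays of that run, from all 3 groups, were at 6.85 to 7.22. None of the 4 besides Wt1 passed between Wntlow and Wntnegative cells, with 0.39 for Lrrn4, −0.05 for Bnc1, 0.20 for Gpm6a (−0.16 without experiment 4) and −0.05 for Calb2.

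Of the 8 mesothelial markers on the list without Wt1, 2 rose in Wntlow against Wntnegative cells, Muc16 and Rspo1, and none fell, with a median of 0.20. Without experiment 4 again 2 rose and the median was 0.02. Rspo1, a secreted enhancer of Wnt signalling, rose by a fitted 1.22 (SE 0.15, adjusted p = 2.29e-05), a difference that without a run term had the same size and an adjusted p of 0.280. Wntnegative arrays of the second run were under the limit for Rspo1, and the difference there was at least 0.56. The mean log2 value of the 8 markers ran from 5.30 to 5.82 in Wntlow, from 4.85 to 4.90 in Wntnegative and from 4.88 to 5.56 in Wnthigh arrays of the first run, and from 3.86 to 4.21, 3.53 to 3.64 and 3.59 to 3.69 in the second run. In experiments 7 to 9, Wt1 and the markers Lrrn4, Bnc1, Calb2, Nkain4 and Aldh1a2 were under the limit on all 9 arrays. In the same experiments Gpm6a was above it on 2 arrays, a Wnthigh and a Wntnegative one, and Muc16 and Rspo1 on all 3 Wntlow arrays. The Msln and Upk1b differences between Wntlow cells and the other groups passed in experiments 7 to 9 alone and without experiment 4. The part of these markers in them was not tested.

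Within experiment 4, Upk3b was high in the same arrays as Lrrn4 and Gpm6a, but not all mesothelial markers were. In its Wntlow array Upk3b was 2.44, Lrrn4 2.10 and Gpm6a 1.72 above the mean of the other 2 Wntlow arrays of the run. In its Wnthigh array they were 2.28, 1.36 and 1.13 above, and in its Wntnegative array 0.17, 0.12 and −0.35 from the mean. Wt1 stood within 0.03 of the other arrays in all 3 groups. Bnc1 was 0.08 and 0.02, Calb2 0.11 and −0.09 and Rspo1 −0.33 and 0.41 from the mean in the Wntlow and the Wnthigh array of experiment 4. In the same order, Nkain4 was 0.64 and 0.36 and Aldh1a2 0.75 and 0.38 above the mean. Wt1, Bnc1 and Calb2 were under the limit on every array, so a lack of rise in them is a statement on probe signal only. Upk1b, Msln and Muc16 were 2.02, 1.38 and 1.55 above in the Wnthigh array of experiment 4, but in its Wntlow array 0.38 and 0.52 above and −1.02 from the mean. Among all genes, 255 (0.846%) were at least 1 above both other arrays of the run in both the Wntlow and the Wnthigh array of experiment 4, among them 2 of the 8 mesothelial markers. The goblet marker mean of that Wnthigh array and the ciliated marker mean of that Wntlow array differed from the other arrays too. What part cell makeup had in the Upk3b values of these arrays was not tested.

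**Figure D4:**
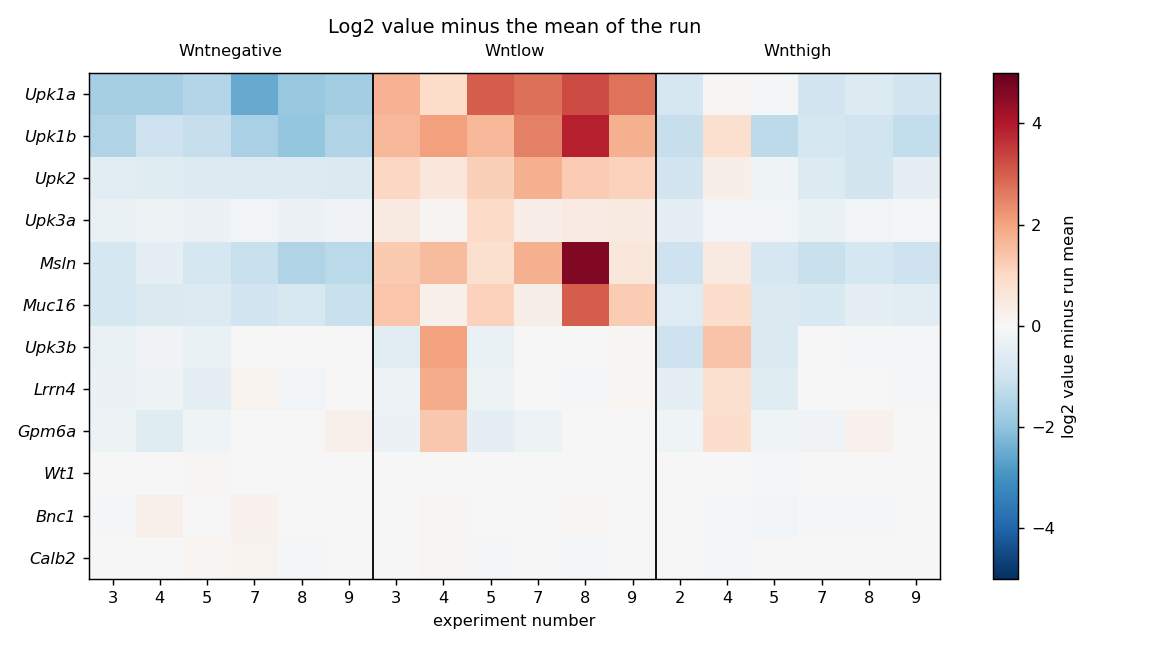
Log2 value minus the mean of the run (colour) for 12 genes on 18 arrays, ordered by group and experiment number. The 6 Wntlow columns are above 0 for Upk1a, Upk1b, Upk2, Msln and Muc16, but only slightly for Muc16 in experiments 4 and 7. In experiment 4 Muc16 was at 5.60 in the Wntlow and 6.21 in the Wnthigh array. Upk3b, Lrrn4 and Gpm6a are red in the Wntlow and Wnthigh columns of experiment 4, and Wt1, Bnc1 and Calb2 are near 0 throughout.

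Markers of airway and alveolar cells differed between the same groups. In Wntlow against Wntnegative cells 9 of 10 goblet, 8 of 10 club and 9 of 9 ciliated cell markers rose, with medians of 4.17, 3.53 and 4.34, while 4 of 10 alveolar type II markers fell. In Wntlow against Wnthigh cells all 10 goblet markers and 7 of 10 club markers were higher, and all 9 ciliated markers were lower. Alveolar type II markers were higher there in 4 of 10, with a median of 2.48. Of 10 alveolar type I markers, 5 were higher and 1 lower than in Wnthigh cells, and 1 rose and 5 fell against Wntnegative cells. Of all genes, 12.3% rose and 13.2% fell in Wntlow against Wntnegative cells, and 16.4% were higher and 11.4% lower than in Wnthigh cells. The goblet marker Foxa3 had group means under the limits in all groups and runs. The mean of the goblet markers ran from 10.01 to 10.63 in Wntlow, 5.10 to 5.59 in Wntnegative and 6.44 to 9.23 in Wnthigh arrays of the first run, and from 10.32 to 11.61, 4.28 to 4.71 and 6.83 to 6.90 in the second run. Goblet and club markers thus were highest in the group where Upk1a, Upk1b and Msln were highest, ciliated markers were not, and the part of cell makeup in the uroplakin and mesothelin differences was not tested. Of 8 basal and hillock markers 4 rose in Wntlow against Wntnegative cells, of 7 neuroendocrine markers 2, of 5 fibroblast markers 1, and of 6 endothelial markers 1 rose and 1 fell, while none of 6 leukocyte markers passed. Only Krt5 and Krt15 of the basal and hillock markers had a group mean above a limit. Without experiment 4 the basal and hillock count was 2, and 6 alveolar type II markers were higher in Wntlow than in Wnthigh cells. Each other count in these comparisons moved by at most 1.

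**Figure D5:**
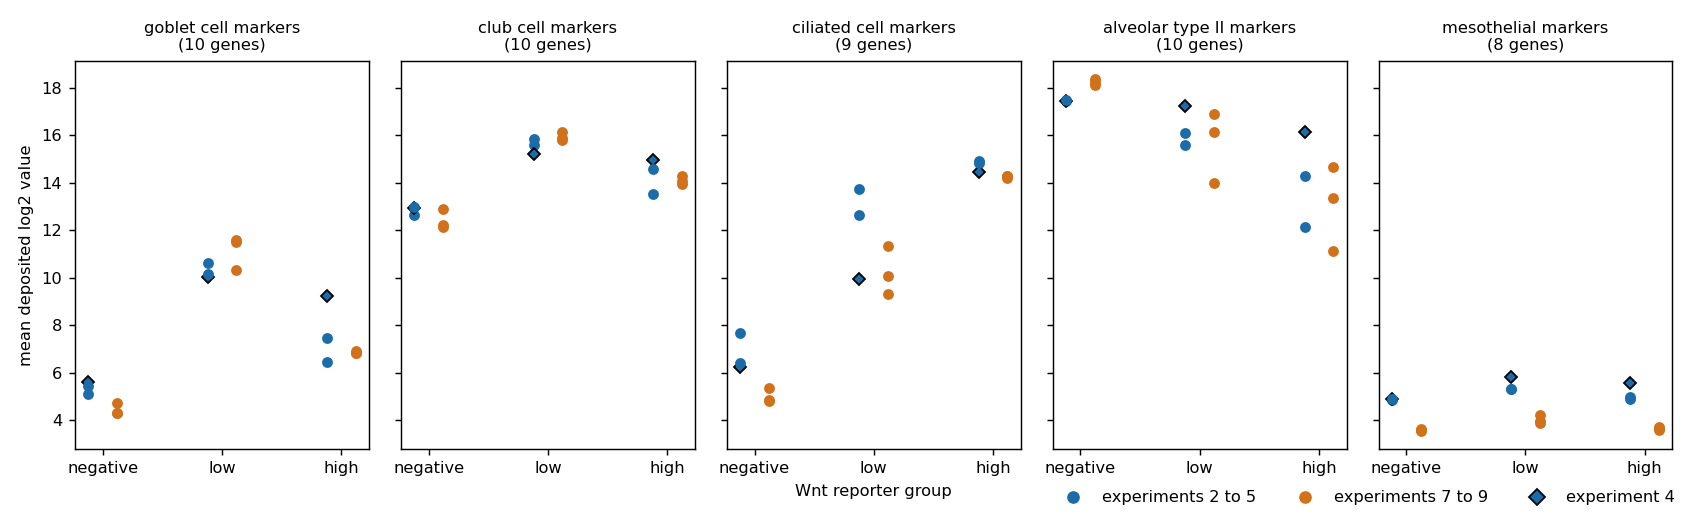
Mean deposited log2 value (vertical axis) of marker genes of 5 cell types on each array by Wnt reporter group, with experiments 2 to 5 in blue, experiments 7 to 9 in orange and experiment 4 as outlined diamonds. Goblet and club marker means are highest in Wntlow arrays, ciliated marker means in Wnthigh arrays, and the Wnthigh array of experiment 4 has a goblet mean of 9.23.

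For Upk1a, Upk1b and Msln, the genes with the most similar pattern were sought over 18 arrays after each gene was centred on its run, among 9189 protein-coding genes above the limit in at least 1 group of both runs. Upk1a was nearest to Gsta2 (Pearson r = 0.988), Gsta3 (0.988), Ces1f (0.987), Acsm1 (0.985) and Cyp4a12b (0.984), which encode enzymes of detoxification and lipid metabolism. Upk1b was nearest to the lipoxygenase gene Alox15 (0.979), Pglyrp1 (0.972), Fer1l6 (0.972), Cyp4a12a (0.972) and Adh7 (0.969). Msln was nearest to Ms4a8a (0.987), Fer1l6 (0.963), Alox15 (0.961), Padi1 (0.961) and Kcne3 (0.956), with Upk1b itself in sixth place (0.952). The group mean of Msln was above the limit in Wntlow cells only. Its Wntlow array of experiment 8 was 4.63 above the run mean and the other Wntlow arrays 0.55 to 1.79. The Msln coefficients therefore lean on that array. Alox15 and Fer1l6 were on the lists of both Upk1b and Msln, and Gsta3 is one of the club cell markers. Values were centred on runs and not on groups, so a shared peak in Wntlow cells is enough for a high coefficient. The ranks therefore restate the group differences in part and are no separate support for them. The coefficients describe these arrays, which share groups and experiments. Probe sets of Gsta2 and Gsta3 and of Cyp4a12a and Cyp4a12b may read each other's transcripts. Upk3a, Upk3b and Wt1 were not above the limit in both runs and were not compared in this way.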

How the data were processed

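The authors deposited log2 values per probe set, made with RMA, which corrects background, normalizes by quantiles and summarises probes, per the submitters' processing notes. Versions and build: not given in the sources used here. Runs were read from the number of decimals and the array medians. These and probe sets constant within a run (162 and 238) are what processing each run by itself would leave.

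Each gene's probe set carried 1 platform symbol, and the brightest on average was kept where there were several, for 30142 genes. Groups were compared with the two-sided moderated test of limma 3.58.1 (R 4.3.3) on all 18 arrays with the run as a term, using Benjamini-Hochberg adjustment over all genes and a threshold of 0.05. The procedure was tested on simulated data. P-values rest on pools from separate experiments. The labels' experiment number pairs arrays of different groups. Residuals of same-numbered arrays correlated at 0.003 to 0.516 in 16 pairs, 12 of them above 0.1. The text names all 6 genes, Upk2, 4 defining mesothelial genes, and the 5 most similar genes of each gene above background. Up to 4 of the largest passing differences are named for the uroplakin, mesothelin partner, urothelial, tetraspanin and mesothelial lists. The other marker lists are given by counts and means, and some list genes are named for their levels only. The genes and lists were chosen with earlier results of these data known. Alternatives were other scalings, run and experiment terms, gene filters, variance models and the omission of each experiment.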

Additional observations from a re-analysis of the deposited data

Results flagged for a closer look

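Values centred on their run were examined for 1 array far from the other 5 of its group, in 72 sets of 1 gene and 1 group, of which chance flags about 1 in 20. There were 16 such arrays, 11 of them from experiment 4.

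In the Wnthigh array of experiment 4, Upk1b was at 8.44, Msln at 5.53, Muc16 at 6.21 and Rspo1 at 6.77, above the other Wnthigh arrays, while Calb2 was at 3.50, below them and under the background limit. In the Wntlow array of experiment 4, Upk3b was at 7.88, Lrrn4 at 6.53, Gpm6a at 8.81, Rab27b at 9.74 and Mal at 13.63, above the other Wntlow arrays, while Tspan1 was at 15.16, below them. Msln was at 9.46 in the Wntlow array of experiment 8, which was 4.63 above its run mean where the other Wntlow arrays were 0.55 to 1.79 above. In that array Upk1b and Muc16 were also the highest of the run, at 10.45 and 7.66. Upk3a was at 6.43 in the Wntlow array of experiment 5. Rab27b was at 8.96 in the Wntnegative array of experiment 8. Wt1 was at 3.96 in the Wntnegative and 3.86 in the Wnthigh array of experiment 5, which is 0.05 and −0.04 from the run mean, and both under the background limit.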

How the results depend on the processing

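Of 321 values of the 6 genes under other settings, 303 kept their direction and side of the threshold, 5 no longer passed and 13 changed sign, all of the latter for Upk3b and Wt1. Without a run term Upk3a did not pass at 0.71 (Wntlow against Wntnegative) and 0.67 (Wntlow against Wnthigh), nor Upk1a at 1.26 (Wnthigh against Wntnegative). In experiments 2 to 5 alone, Upk1a in that comparison was at 1.33 and Upk3a in Wntlow against Wnthigh at 0.76. Upk3b changed sign for Wntlow against Wntnegative without experiment 4 (−0.0268; range over experiments left out −0.0268 to 0.45), and for Wnthigh against Wntnegative in experiments 7 to 9 alone (−0.0492), with array weights (−0.0088) and without experiment 4 (−0.25; range −0.25 to 0.26). Wt1 changed sign for Wntlow against Wntnegative with quantile normalization over all arrays (0.027), for Wnthigh against Wntnegative with centred arrays (0.0054) and quantile normalization (0.0187), and for Wntlow against Wnthigh in experiments 7 to 9 alone (−0.0012), with centred arrays (−0.031), with array weights (−0.0032) and without single experiments (range −0.0023 to 0.0044). Lrrn4 was at −0.0095 and Gpm6a at −0.19 in experiments 7 to 9 alone, and Gpm6a at −0.16 without experiment 4 (range −0.16 to 0.30).

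Of all genes, 7697, 12142 and 8402 passed in low against negative, high against negative and low against high, and 1061, 2824 and 1351 without a run term. With a size of at least 1 there were 2305, 4188 and 2742. Experiments 2 to 5 alone gave 2532 for low against negative and 3291 for low against high, and experiments 7 to 9 alone 4471 in the former and 7906 in high against negative. Differences between runs passed in 2 genes for low against negative with dim genes left out, in 5 with array weights and in 0 to 2 without single experiments. They passed in 0 to 46 genes for high against negative without single experiments, and for low against high in 2 with array weights and 0 to 33 without single experiments. With the experiment as a block for the pairing, 8002, 11573 and 8139 genes passed in limma. No call of the 6 genes or of the other genes with a fitted difference given changed (Upk1a in high against negative at adjusted p = 0.0252). The cause of these shifts was not tested. Levels at the background limit Upk3a, Upk3b, Msln and Wt1 to lower bounds or to no reading in part of the arrays.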
